A study of Mus musculus with 24 samples.

Results

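RNA sequencing levels in MacB3 cells sorted from tumour-bearing mouse lung at 2 weeks (MacB3-2wk) were set against those in MacB2 cells sorted from lung without tumour (MacB2-N). Each group had 3 libraries, taken by title, so that 6 of the 24 libraries of the series carry the comparison. Naive MacB2 was taken as a possible precursor state of MacB3, and the libraries do not test descent. All mice were C57BL/6 males of 10 to 16 weeks, and the labels name no engineered allele. MacB3-2wk came from the left lobe 2 weeks after that lobe had received LLC-Luc cells, a Lewis lung carcinoma line with luciferase, in a Matrigel suspension. MacB2-N came from all lobes of mice that had no injection. Both populations were CD11b+/Ly6G- by flow cytometry, and MacB3 was CD64hi/CD11c+ where MacB2 was CD64med/CD11c-. Lungs were perfused before digestion, and each library pooled tissue of 3 to 5 mice. The labels describe the 3 libraries of a group as independent experiments, and libraries of the same replicate number shared a run lane (2, 3 and 7 for replicates 1, 2 and 3 of both groups). Sort gate, tumour, injection and lobe all differed between the groups and cannot be told apart. No group injected with Matrigel alone was analysed here. In bulk RNA, fewer cells of a type and less RNA per cell cannot be told apart either.

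As background, classical monocytes circulate in the blood with the chemokine receptor CCR2 and high Ly6C on their surface, while nonclassical monocytes crawl along vessel walls and lose these molecules. Monocytes that settle in tissue gradually shut down the genes of circulation and take up those of a resident macrophage, which include complement C1q, lysosomal enzymes and receptors for dying cells. Macrophages in tumours are known for arginase 1, matrix-degrading proteases and chemokines that draw in further leukocytes. CD64, the high-affinity Fc gamma receptor, is encoded by Fcgr1, and CD11c, an integrin alpha chain, by Itgax.

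Monocyte genes such as Ly6c2 and Ace were lower in MacB3-2wk, and macrophage genes such as Arg1, Mmp12 and the C1q chains were higher. Of 17156 genes tested, 1265 were higher in MacB3-2wk (7.37%) and 1190 were lower (6.94%), while 14701 were not called. Levels are FPKM, which by definition are fragments scaled to transcript length and library size. That unit was taken from the labels and the submitters' tools, and the table itself does not state how libraries were normalized. Differences are MacB3-2wk minus MacB2-N in log2(FPKM + 1), a scale that shrinks the change of low genes. A gene was called at a Benjamini-Hochberg adjusted p under 0.05 in limma together with a difference of at least 2-fold, and values after ± are the SD of 3 libraries unless marked SE. The median difference over all genes tested was 0.00. The gene lists used below were written with earlier results of these data known, so their counts and medians are descriptions and not tests.

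**Figure D1:**
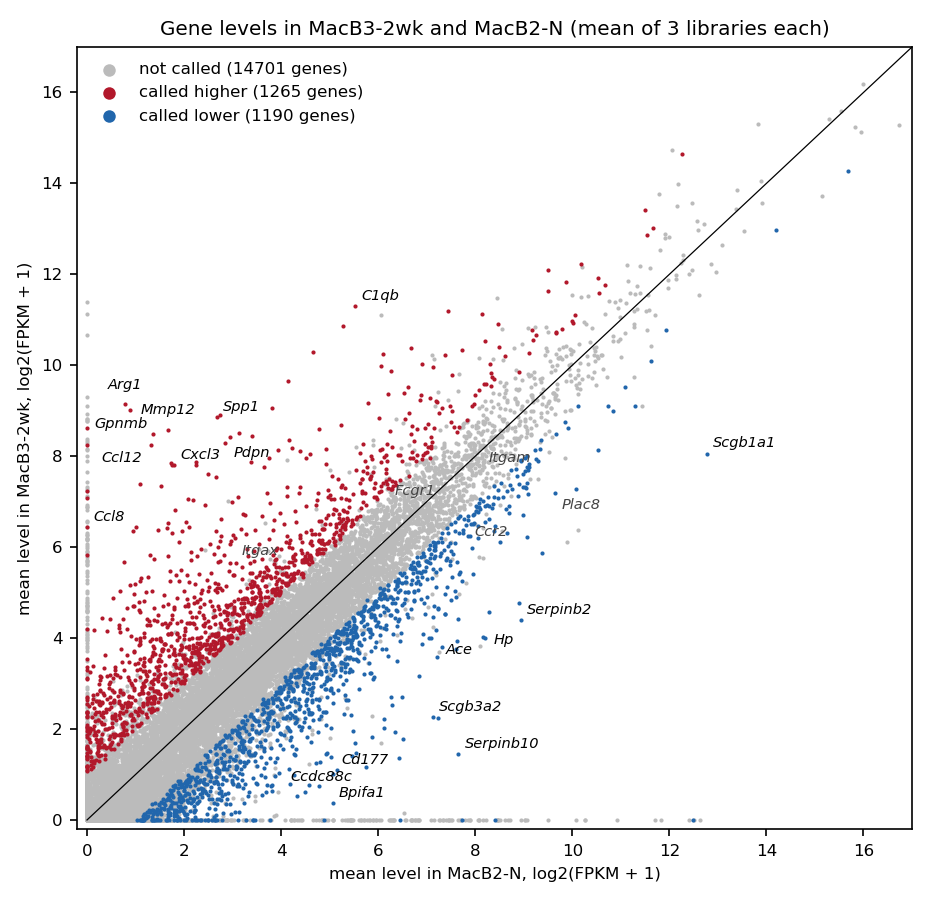
Mean level of each tested gene in MacB2-N (x axis) and MacB3-2wk (y axis), both as log2 of the mean FPKM + 1 over 3 libraries, with genes called higher in red, called lower in blue and not called in grey. Arg1, Mmp12 and Gpnmb lie far above the diagonal line of equal level, Serpinb10 and Scgb3a2 far below it, and Itgam near it.

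Library sums were 2477657 to 3856297 FPKM, of which microRNA genes made up 51.8% to 70.9% and protein-coding genes 17.6% to 27.8%. Between 13297 and 13807 protein-coding genes were above 0 in a library. The correlation of log2 levels between libraries was 0.918 to 0.933 within MacB3-2wk, 0.868 to 0.912 within MacB2-N and 0.797 to 0.870 between the groups. Replicate 3 of MacB2-N stood a little apart, with a mean correlation of 0.870 with its own group.

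The transcripts of CD11c and CD64 were higher in the CD11c+/CD64hi population. Itgax read 73.8, 50.01 and 93.03 FPKM in MacB3-2wk and 8.81, 5.54 and 7.65 FPKM in MacB2-N, and Fcgr1 read 173, 184 and 185 FPKM in MacB3-2wk and 76.05, 86.9 and 56.6 FPKM in MacB2-N. Both were higher in every MacB3-2wk library than in any MacB2-N library. The difference was 3.11 ± 0.24 (SE), adjusted p = 3.0e-08 for Itgax and 1.31 ± 0.16 (SE), adjusted p = 1.0e-05 for Fcgr1, and since both proteins defined the gates these are a check of the labels. Itgam, the alpha chain of CD11b, read 366, 251 and 283 FPKM in MacB3-2wk and 303, 342 and 197 FPKM in MacB2-N and was not called (0.12 ± 0.35 (SE)). Ly6g was listed at 0 in all 6 libraries, which does not show absence, since all 13 mitochondrial transcripts examined were also listed at 0 there. Siglecf, which marks alveolar macrophages and eosinophils, stayed between 0.0879 and 5.26 FPKM and was not called.

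Promoter sequence is printed for genes that carry the findings described further on: 2 of the C1q chains, a matrix protease, a lysosomal protease and an interferon-gamma target that were higher in MacB3-2wk, and Ace, a nonclassical monocyte gene that was lower. Each is the 250 bases before the RefSeq start on the gene's own strand in GRCm38.p6, written 5′ to 3′, and capitals mark matches to 4 motifs. The motifs were GAGGAA (the core bound by PU.1, the factor that macrophage identity needs), TGANTCA (AP-1), TCACGTGA (an E-box core known from lysosomal genes) and the interferon-stimulated response core (2 copies of GAAA with 2 bases of any kind between them), each sought on both strands.
C1qb, chr4:136886201-136886450, minus strand: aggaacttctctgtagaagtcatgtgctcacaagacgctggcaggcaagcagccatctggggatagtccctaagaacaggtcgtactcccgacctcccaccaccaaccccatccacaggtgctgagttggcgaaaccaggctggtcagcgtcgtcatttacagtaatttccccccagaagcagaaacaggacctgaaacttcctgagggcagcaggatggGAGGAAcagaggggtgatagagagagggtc
C1qc, chr4:136892915-136893164, minus strand: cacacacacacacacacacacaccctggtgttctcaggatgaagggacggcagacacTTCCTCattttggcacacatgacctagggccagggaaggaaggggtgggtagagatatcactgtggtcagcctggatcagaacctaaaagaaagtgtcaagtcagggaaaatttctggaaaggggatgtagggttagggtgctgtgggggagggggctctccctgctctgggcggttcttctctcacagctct
Mmp12, chr9:7344147-7344396, plus strand: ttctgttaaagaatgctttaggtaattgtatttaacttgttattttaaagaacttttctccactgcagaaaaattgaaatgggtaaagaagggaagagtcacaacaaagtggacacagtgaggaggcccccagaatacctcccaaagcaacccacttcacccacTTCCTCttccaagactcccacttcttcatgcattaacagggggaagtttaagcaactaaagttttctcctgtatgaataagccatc
Ctsd, chr7:142387828-142388077, minus strand: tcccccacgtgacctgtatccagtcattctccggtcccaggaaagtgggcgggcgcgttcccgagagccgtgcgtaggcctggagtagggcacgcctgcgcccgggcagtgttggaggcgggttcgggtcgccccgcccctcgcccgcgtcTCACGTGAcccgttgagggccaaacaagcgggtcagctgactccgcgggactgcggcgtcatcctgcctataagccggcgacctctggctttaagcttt
Cxcl10, chr5:92348890-92349139, minus strand: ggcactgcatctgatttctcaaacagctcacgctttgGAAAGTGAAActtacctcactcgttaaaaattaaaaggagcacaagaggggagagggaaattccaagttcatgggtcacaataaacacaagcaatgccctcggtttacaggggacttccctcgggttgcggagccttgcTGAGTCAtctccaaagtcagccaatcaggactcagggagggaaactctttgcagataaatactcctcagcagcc
Ace, chr11:105967698-105967947, plus strand: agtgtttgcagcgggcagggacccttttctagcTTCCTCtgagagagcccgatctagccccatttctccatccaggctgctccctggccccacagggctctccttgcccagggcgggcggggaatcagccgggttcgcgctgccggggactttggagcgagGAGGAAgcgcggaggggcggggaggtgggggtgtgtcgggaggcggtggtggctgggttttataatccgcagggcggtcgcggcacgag
The PU.1 core was found in the windows of C1qb, C1qc (as TTCCTC, its reverse complement), Mmp12 (likewise) and Ace (once in each orientation), so it was present in genes that were higher and in one that was lower. Ctsd held the lysosomal core 99 to 92 bases before the start, and Cxcl10 held the interferon core at 213 to 204 and the AP-1 core at 74 to 68. Among all 32851 promoters of the table, 23.3% held the PU.1 core, 6.75% the AP-1 core, 0.785% the lysosomal core and 2.98% the interferon core. Among 849 called-higher and 694 called-lower distinct symbols of protein-coding genes with an entry, the PU.1 core was held by 28.3% and 29.7%, against 26.2% of 8308 genes that were not called. The AP-1 core was held by 8.72%, 7.35% and 5.31% of these 3 sets, the lysosomal core by 2.36%, 1.01% and 1.70%, and the interferon core by 3.65%, 3.31% and 3.21%. The windows shown were chosen because they hold a match, taking the first such entry of a gene, and a match is a description of the letters and not a binding site.

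Classical monocyte genes were lower in MacB3-2wk. Of 20 members of the list tested, 13 fell and 0 rose, with a median difference of -1.99. Ly6c2, the Ly6C antigen itself, fell from 2503 ± 461 to 548 ± 90.96 FPKM (-2.19 ± 0.37 (SE), adjusted p = 2.4e-04), although it shares sequence with Ly6c1 and its level is uncertain. Plac8, a small protein abundant in circulating myeloid cells, read 154, 125 and 160.2 FPKM in MacB3-2wk and 995, 846 and 551 FPKM in MacB2-N. The 3 MacB2-N libraries all lay far above the highest MacB3-2wk library, with a difference of -2.41 ± 0.34 (SE), adjusted p = 4.6e-05. F13a1, the coagulation factor XIII subunit of monocytes, fell by a smaller step, from 153 ± 33.6 to 45.1 ± 17.2 FPKM. Ccr2, the receptor that draws monocytes out of the marrow, read 99.7, 89.4 and 99.7 FPKM in MacB3-2wk and 173, 315 and 198 FPKM in MacB2-N. Its difference was -1.19 ± 0.24 (SE), adjusted p = 0.0013, and it was under 2-fold (-0.94) without replicate 2 of MacB2-N, the highest of the group. Vcan, the matrix proteoglycan versican, overlapped between the groups (32.5, 13.5 and 25.7 against 26.7, 69.1 and 37.01 FPKM) and was not called.

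Several secreted or granule-linked members of that list showed the widest gaps. Cd177, a surface glycoprotein shared by neutrophils and some monocytes, read 2.38, 0.995 and 1.402 FPKM in MacB3-2wk and 75.5, 103 and 78.6 FPKM in MacB2-N, a difference of -5.08 ± 0.22 (SE), adjusted p = 3.0e-11. Hp, which encodes the hemoglobin scavenger haptoglobin, read 19.96, 12.5 and 12.7 FPKM in MacB3-2wk and 299.9, 336 and 246 FPKM in MacB2-N. No MacB3-2wk library came near the lowest MacB2-N library for either gene. Cd177 and Mmp8 are also on the neutrophil list, whose level is given with the other leukocyte markers. Itga4, the integrin chain of VLA-4, fell by 2.72 on the log2 scale and Ifitm6, an interferon-induced membrane protein of myeloid cells, by 3.51. Gm9733, a predicted gene, fell from 476 ± 188 to 26.2 ± 9.299 FPKM. Chil3, the chitinase-like protein Ym1, read 26.6, 17.4 and 24.1 FPKM in MacB3-2wk and 200.2, 278 and 457 FPKM in MacB2-N, and near-identical copies make its level uncertain. Serpinb10, a serine protease inhibitor, showed the deepest fall among protein-coding genes that reached a mean of 20 FPKM in either group, from 212, 171 and 217 FPKM in MacB2-N to 1.93, 2.43 and 0.836 FPKM (-6.24 ± 0.26 (SE), adjusted p = 3.0e-11). Serpinb2, plasminogen activator inhibitor 2, fell from 489.6 ± 278 to 20.1 ± 13.3 FPKM. Nxpe4, G0s2 (an inhibitor of triglyceride lipase), Ccdc88c (a Wnt-pathway scaffold) and Cd300lg (a CD300-family receptor) fell by 4.41, 4.26, 4.56 and 4.09 on the log2 scale. A lack of overlap between the groups was a condition for naming these genes.

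Nonclassical monocyte genes were lower as well. Of 17 members tested, 13 fell and 0 rose, with a median of -2.20. Ace, angiotensin-converting enzyme, read 18.6, 15.2 and 11.8 FPKM in MacB3-2wk and 352, 173 and 333 FPKM in MacB2-N, a difference of -4.10 ± 0.34 (SE), adjusted p = 7.1e-08. The lowest naive library was still far above the highest tumour library, but Ace is among the 15 lowest genes, for which no overlap was a condition. Pglyrp1, a peptidoglycan-binding protein, read 6.305, 1.13 and 3.72 FPKM in MacB3-2wk and 199, 91.5 and 157 FPKM in MacB2-N. Spn, the sialoglycoprotein CD43, fell from 119 ± 41.96 to 13.6 ± 5.37 FPKM, Itgal, the alpha chain of LFA-1, from 164 ± 47.4 to 22.2 ± 5.49, and Emr4, an adhesion receptor, from 45.6 ± 6.62 to 1.797 ± 0.7097. Ear2, an eosinophil-associated ribonuclease with close copies, read 7.86, 11.2 and 5.004 FPKM in MacB3-2wk and 119.7, 98.6 and 120.5 FPKM in MacB2-N. Nr4a1, the nuclear receptor that nonclassical monocytes depend on, fell from 1836 ± 314 to 507 ± 289.6 FPKM (-2.01 ± 0.41 (SE), adjusted p = 0.0014), while Cx3cr1, the fractalkine receptor, read 94.7, 72.2 and 74.3 FPKM in MacB3-2wk and 109, 112 and 99.9 FPKM in MacB2-N and was not called (-0.42 ± 0.21 (SE)). Mean levels of the list were 4.83, 4.24 and 4.75 in the 3 MacB3-2wk libraries and 7.30, 6.71 and 6.81 in the 3 MacB2-N libraries, on the log2 scale.

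Immediate early genes, which tissue digestion can also induce, moved both ways. Of 27 tested, 4 rose and 8 fell, with list means of 7.81, 7.41 and 7.72 in MacB3-2wk and 7.80, 7.70 and 8.08 in MacB2-N. The 4 higher were 2 without replicate 1 or 3 of MacB3-2wk or replicate 1 of MacB2-N, and the 8 lower were 5 without replicate 3 of MacB3-2wk. Ier2 and Jund fell from 270.3 ± 28.1 to 125 ± 16.1 and from 963 ± 150.4 to 391 ± 134 FPKM, while Ier3 rose from 158 ± 38.1 to 532 ± 150.2. Fos and Jun were abundant in both groups and were not called (-0.94 ± 0.30 (SE) and -0.76 ± 0.22 (SE)). Nr4a1 and Atf3 belong to this list as well, and what part digestion had in their levels was not tested.

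Epithelial and endothelial transcripts moved in the same direction as these monocyte genes, and their part in the monocyte result was not tested. Of 22 lung epithelial markers tested, 10 fell and 0 rose, and the mean level of the list was 1.87, 2.20 and 2.25 in MacB3-2wk and 3.63, 3.44 and 4.28 in MacB2-N. Scgb1a1, the club cell secretory protein, read 109.6, 139 and 549 FPKM in MacB3-2wk and 10211, 7856 and 2834 FPKM in MacB2-N (-4.90 ± 0.95 (SE), adjusted p = 9.2e-04). It was still present in all 3 MacB3-2wk libraries. Scgb3a2, Cyp2f2 and Bpifa1, all products of the airway lining, fell by 4.91, 4.65 and 4.56, and Wfdc2, a secreted protease inhibitor of the airway, by 4.23. These airway genes differed widely among the naive libraries. Sftpc, surfactant protein C, read 16.1, 19.1 and 12.6 FPKM in MacB3-2wk and 58.7, 55.2 and 248 FPKM in MacB2-N. Of 20 endothelial markers, 8 fell, with list means of 3.00, 3.32 and 2.84 in MacB3-2wk and 3.73, 3.73 and 5.41 in MacB2-N. That count rested on replicate 3 of MacB2-N, the highest library, and was 1 without it, while leaving out replicate 1, 2 or 3 of MacB3-2wk gave 2, 3 and 3. Flt1, a receptor for vascular endothelial growth factor, fell from 21.7 ± 8.46 to 5.18 ± 0.746 FPKM and kept its call in every setting.

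Genes of macrophage maturation were higher in MacB3-2wk. Of 26 members tested, 17 rose and 0 fell, with a median difference of 2.48. Gpnmb, a transmembrane glycoprotein of lipid-laden and tumour macrophages, read 333, 368 and 371 FPKM in MacB3-2wk and 1.09, 1.38 and 2.19 FPKM in MacB2-N. The groups were far apart, with a difference of 7.15 ± 0.54 (SE), adjusted p = 2.4e-08, and a lack of overlap was a condition for its place among the 15 highest. Spp1, which encodes the matricellular protein osteopontin, read 358, 655 and 377 FPKM in MacB3-2wk and 2.495, 2.62 and 11.1 FPKM in MacB2-N (6.38 ± 0.45 (SE), adjusted p = 8.8e-09). C3ar1, the receptor for the complement fragment C3a, rose from 4.67 ± 1.01 to 194 ± 28.6 FPKM. Cd63 and Cd81, tetraspanins of late endosomes and the surface, rose from 3.304 ± 1.94 to 86.6 ± 3.85 and from 26.3 ± 5.87 to 388 ± 18.4 FPKM, and Fabp5, a fatty acid-binding protein, from 16.9 ± 3.52 to 325 ± 125. Mertk, the receptor tyrosine kinase for dying cells, read 24.5, 29.9 and 21.2 FPKM in MacB3-2wk and 1.67, 1.02 and 6.97 FPKM in MacB2-N (2.89 ± 0.46 (SE), adjusted p = 1.6e-04). Cd68, a lysosomal glycoprotein, and Apoe, the lipid carrier, were already high in naive MacB2 and rose less, from 612 ± 146 to 1633 ± 243 and from 1470.3 ± 424 to 3883 ± 999.6 FPKM. Not all macrophage markers moved: Emr1 (F4/80) read 39.1, 61.5 and 32.4 against 22.6, 27.2 and 26.2 FPKM without overlap and was not called (0.74 ± 0.27 (SE)). Cd14, Lgals3 (galectin-3) and Timd4, an embryonic resident-macrophage marker, were not called either, at 927 ± 438 against 757 ± 281, 1322 ± 259 against 705 ± 171 and 0.699 ± 0.598 against 1.004 ± 0.334 FPKM.

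All 3 chains of complement C1q, the recognition unit of the classical pathway that macrophages make, rose together. The genes lie side by side on chromosome 4 (GRCm38, GENCODE M21), C1qb at 136880129 to 136886187, C1qc at 136889804 to 136893065 and C1qa at 136895917 to 136898803, all on the minus strand. C1qa read 1727, 1903 and 1961 FPKM in MacB3-2wk and 37.95, 34.3 and 41.3 FPKM in MacB2-N. C1qb read 2603, 2211 and 2719 FPKM in MacB3-2wk and 53.7, 36.7 and 44.4 FPKM in MacB2-N. C1qc read 1275, 1164 and 1317 FPKM in MacB3-2wk and 28.3, 17.3 and 26.6 FPKM in MacB2-N. The 3 tumour libraries of each chain lay close together and far above the naive ones, with differences of 5.59 ± 0.34 (SE), 5.78 ± 0.33 (SE) and 5.67 ± 0.29 (SE) and adjusted p of 1.3e-09, 7.6e-10 and 3.3e-10. For C1qb and C1qc, which are among the 15 highest genes, a lack of overlap was a condition of naming. The wider complement list was mixed: 8 of 20 members rose and 2 fell, and the median was 0.20. The count of 2 lower was 1 without replicate 2 of MacB3-2wk or replicate 1 or 3 of MacB2-N. The risers included Itgax, whose protein defined the gates, and C5ar1, the C5a receptor, from 50.2 ± 14.3 to 307 ± 25.97 FPKM. C1ra and C4b, which act in the classical pathway with C1q, were not called, at 4.55 ± 0.533 against 2.17 ± 0.2897 and 7.29 ± 3.35 against 9.08 ± 0.528 FPKM.

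**Figure D2:**
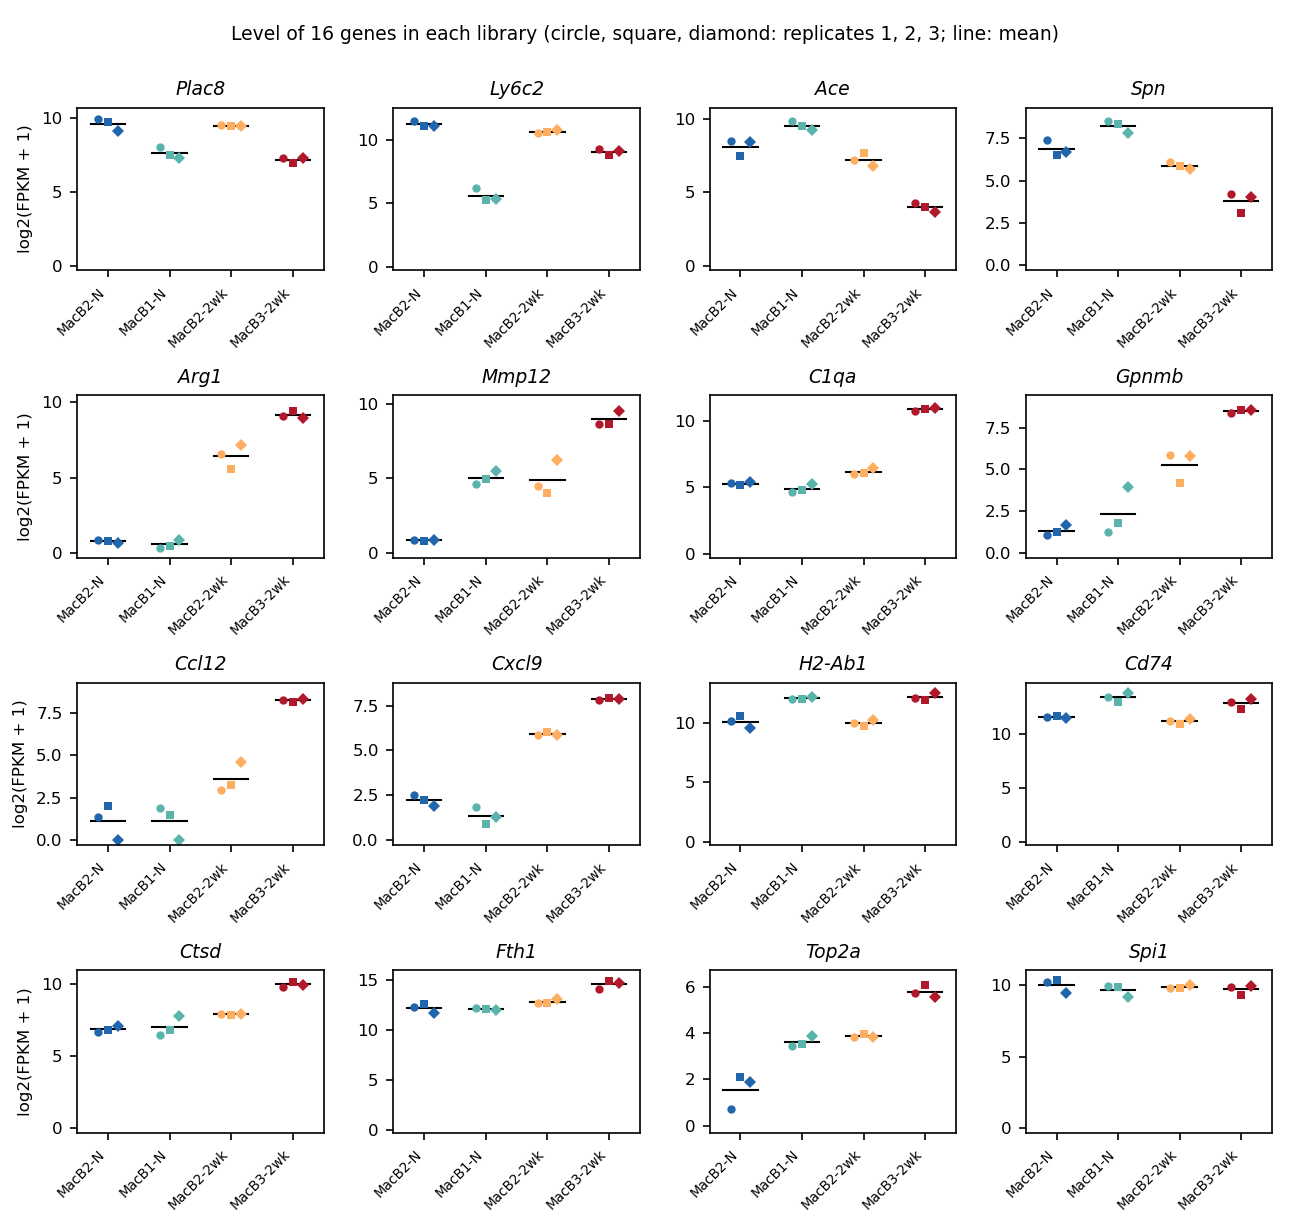
Level of 16 genes in each library of MacB2-N, MacB1-N, MacB2-2wk and MacB3-2wk, as log2(FPKM + 1), with symbols for replicates and a line at the group mean. Plac8, Ly6c2, Ace and Spn are lower and the next 11 genes higher in all 3 MacB3-2wk libraries than in MacB2-N, while Spi1 overlaps.

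Transcription factors split rather than moving one way. Of 30 tested, 7 rose, 8 fell and 15 were not called. Egr2, an immediate early zinc-finger factor, read 440.3, 381 and 418 FPKM in MacB3-2wk and 21.5, 30.9 and 57.1 FPKM in MacB2-N (3.58 ± 0.37 (SE), adjusted p = 1.2e-06). Bhlhe41, a repressor found in tissue macrophages, rose from 1.14 ± 0.963 to 22.8 ± 1.17 FPKM, Maf from 36.4 ± 2.73 to 94.7 ± 5.36 and Mitf, of the lysosome-regulating MiT family, from 7.199 ± 1.55 to 24.8 ± 4.56. Rara, a retinoic acid receptor, fell from 177 ± 12.7 to 50.4 ± 15.8 FPKM, Atf3 from 547 ± 84.5 to 143 ± 22.8 and Bach1, a heme-sensing repressor, from 126 ± 9.17 to 46.6 ± 13.4. The factors that define the myeloid lineage stayed near their naive level: Spi1, which encodes PU.1, read 933, 625 and 975 FPKM in MacB3-2wk and 1188, 1316 and 695 FPKM in MacB2-N, and its groups overlapped (-0.31 ± 0.31 (SE)). Cebpa, Irf8 and the MHC class II activator Ciita were not called, at 0.38 ± 0.21 (SE), -0.02 ± 0.22 (SE) and 0.43 ± 0.27 (SE). Csf1r, the receptor for the growth factor that keeps macrophages alive, read 466, 321 and 432 FPKM in MacB3-2wk and 562, 552 and 456 FPKM in MacB2-N and was not called (-0.38 ± 0.25 (SE)).

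Arg1, arginase 1, showed the largest difference of all genes that met the naming rule. It lies on chromosome 10 at 24915221 to 24927484 (GRCm38, minus strand) and read 538, 678 and 495 FPKM in MacB3-2wk and 0.807, 0.763 and 0.574 FPKM in MacB2-N. No MacB2-N library reached 1 FPKM, and the difference was 8.37 ± 0.44 (SE), adjusted p = 3.3e-10. Slc7a2, a transporter of the arginase substrate, rose from 0.502 ± 0.265 to 9.31 ± 1.596 FPKM, and Nos2, the nitric oxide synthase that competes for arginine, from 0.265 ± 0.351 to 4.08 ± 1.12. Of 19 genes on the arginine and interleukin-4 response list, 9 rose and 2 fell, with a median of 0.95. Mrc1, the mannose receptor CD206, read 70.3, 122 and 59.3 FPKM in MacB3-2wk and 6.46, 6.55 and 11.1 FPKM in MacB2-N, and Mgl2, a galactose-type lectin, rose from 3.45 ± 1.46 to 51.5 ± 7.17 FPKM. Cd209a, a lectin of monocyte-derived dendritic cells, fell from 20.4 ± 4.69 to 2.91 ± 1.78, and Chil3 fell as given above. Retnla and Clec10a, other targets of interleukin-4, were not called, at 24.5 ± 3.13 against 23.98 ± 5.68 and 4.83 ± 2.37 against 8.17 ± 2.46 FPKM.

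Several matrix-degrading proteases rose. Of 22 metalloproteinases, ADAM proteases and inhibitors tested, 9 rose and 1 fell, with a median of 0.84. Mmp12, macrophage elastase, read 396, 403 and 745 FPKM in MacB3-2wk and 0.86998, 0.802 and 0.869 FPKM in MacB2-N (8.06 ± 0.52 (SE), adjusted p = 2.4e-09). Mmp14, a membrane-bound collagenase that activates other proteases, read 234, 171 and 259.5 FPKM in MacB3-2wk and 5.28, 2.36 and 3.55 FPKM in MacB2-N, and Mmp13, collagenase 3, 12.2, 17.8 and 21.6 FPKM in MacB3-2wk and 0.0691, 0.196 and 0.0491 FPKM in MacB2-N. The groups did not overlap in any of these genes, which for Mmp12 was a condition of naming. Levels in MacB2-N were near 0 for Mmp12 and Mmp13. In MacB1-N, the naive CD11c+ population described further on, Mmp12 read 23.4, 30.2 and 43.8 FPKM. Timp2, an inhibitor of these enzymes, rose from 32.4 ± 10.9 to 105 ± 14.2 FPKM and Adam9 from 7.14 ± 0.389 to 24.01 ± 3.86. Mmp9, gelatinase B, rose from 19.7 ± 5.98 to 146 ± 114 FPKM, but the MacB3-2wk libraries were spread (52.1, 273 and 113 FPKM), and the call was lost without replicate 2 (1.95, adjusted p = 0.107). Mmp8, neutrophil collagenase, fell by 1.10, a call lost without replicate 1 or 2 of MacB3-2wk or replicate 2 of MacB2-N. Plau, urokinase, which starts the plasmin cascade on the matrix, rose from 1.39 ± 0.936 to 39.8 ± 6.64 FPKM. Anpep, aminopeptidase N, and Pdpn, the mucin-like glycoprotein podoplanin, rose from 2.35 ± 0.691 to 223 ± 38.8 and from 6.17 ± 4.48 to 314 ± 59.3 FPKM.

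Chemokines were the lists with the largest median differences of the 48 examined. Of 12 CC chemokines tested, 8 rose and 0 fell (median 2.92), and of 13 CXC and CX3C chemokines, 10 rose and 1 fell (median 3.55). The monocyte attractants Ccl2, Ccl7, Ccl12 and Ccl8, ligands of CCR2 and related receptors, lie between 82035571 and 82116799 on the plus strand of chromosome 11 (GRCm38). Ccl2 read 675, 917 and 606 FPKM in MacB3-2wk and 100.3, 113 and 77.8 FPKM in MacB2-N. Ccl7 read 161, 181 and 143 FPKM in MacB3-2wk and 2.88, 2.72 and 0 FPKM in MacB2-N, and Ccl12 read 299.6, 283 and 324 FPKM in MacB3-2wk and 1.56, 2.96 and 0 FPKM in MacB2-N. In MacB3-2wk Ccl8 read 75.9, 90.7 and 91.4 FPKM, while the table lists it at 0 for every naive library. All 4 were called, with adjusted p between 4.5e-07 (Ccl7) and 3.3e-06 (Ccl12), so the ligands rose in the population where Ccr2 itself was lower. Ccl5, a T cell attractant, rose from 23.3 ± 11.7 to 263 ± 16.1 FPKM and the eosinophil attractant Ccl24 from 1.52 ± 0.197 to 32.01 ± 11.5. Ccl3, Ccl4, Ccl6 and Ccl9 were high in both groups and were not called, with 349.6 ± 85.4 against 349 ± 109 FPKM for Ccl3 and 1979 ± 146 against 1205 ± 936 FPKM for Ccl9.

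Most CXC chemokines rose. Cxcl9, a ligand of CXCR3 on T and NK cells, read 223, 245 and 229.6 FPKM in MacB3-2wk and 4.72, 3.66 and 2.75 FPKM in MacB2-N. Cxcl10, another ligand of that receptor, read 1391, 1146 and 1478 FPKM in MacB3-2wk and 95.2, 96.1 and 112 FPKM in MacB2-N. The differences were 5.65 ± 0.31 (SE), adjusted p = 5.3e-10 for Cxcl9 and 3.71 ± 0.32 (SE), adjusted p = 1.3e-07 for Cxcl10. Cxcl1 and Cxcl3, neutrophil attractants, rose from 4.11 ± 1.52 to 61.3 ± 16.6 and from 2.45 ± 1.62 to 223 ± 94.7 FPKM. Cxcl16, a membrane-bound ligand that is also a scavenger receptor, rose from 11.5 ± 1.305 to 216 ± 8.55 FPKM (4.13 ± 0.22 (SE), adjusted p = 3.3e-10). Pf4, platelet factor 4, read 599.6, 1233 and 584 FPKM in MacB3-2wk and 27.6, 11.1 and 10.9 FPKM in MacB2-N, and Ppbp, another product of platelet alpha granules, 17.5, 165 and 23.99 FPKM in MacB3-2wk and 3.13, 1.48 and 3.62 FPKM in MacB2-N. Replicate 2 of MacB3-2wk was highest for both, and the Ppbp call was lost without it (2.57, adjusted p = 0.0659). Of 12 platelet and erythroid markers tested, 2 rose (Pf4 and Ppbp) and 1 fell (Gp9, a platelet receptor subunit, 0, 0.295 and 0 against 3.399, 2.14 and 4.03 FPKM), while Itga2b, Gp5 and Gp1bb were below 2 FPKM in all 6 libraries. The list means were 1.62, 2.75 and 1.69 in MacB3-2wk and 3.24, 2.41 and 1.92 in MacB2-N, and what part platelet RNA had in the Pf4 and Ppbp levels was not tested. Among 17 chemokine and chemoattractant receptors, 6 rose and 4 fell, with a median of -0.08 although the mean of the list was higher in MacB3-2wk (4.96, 4.86 and 4.75 against 4.52, 4.47 and 4.61). Ccr1, which binds CCL3 and CCL5, rose from 25.8 ± 6.63 to 129.7 ± 6.56 FPKM, and Cmklr1, the chemerin receptor, from 98.8 ± 28.6 to 492 ± 54.4. S1pr5, a sphingosine phosphate receptor of cells leaving tissue, read 0.339, 0.388 and 0.626 FPKM in MacB3-2wk and 23.96, 12.5 and 20.8 FPKM in MacB2-N.

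Cytokine transcripts mostly rose where they were called. Of 36 cytokines and growth factors, 15 rose, 1 fell and 20 were not called, with a median of 0.52. Il1rn, the interleukin-1 receptor antagonist, read 992, 865 and 1191 FPKM in MacB3-2wk and 73.97, 75.1 and 46.9 FPKM in MacB2-N (3.96 ± 0.31 (SE), adjusted p = 2.9e-08). Mif, macrophage migration inhibitory factor, read 1166, 1143 and 1326 FPKM in MacB3-2wk and 90.5, 83.2 and 28.5 FPKM in MacB2-N (4.31 ± 0.40 (SE), adjusted p = 2.5e-07). Il1a rose from 2.25 ± 0.0652 to 43.4 ± 8.04 FPKM, whereas Il1b was as high in naive cells (1191 ± 498 against 1554 ± 673 FPKM) and was not called. Vegfb, Pdgfa and Grn, growth factors, rose from 1.94 ± 1.21 to 18.8 ± 6.53, from 2.602 ± 2.08 to 28.6 ± 8.72 and from 315 ± 22.9 to 1039.7 ± 157 FPKM. Inhba, the activin A subunit, rose from 0.951 ± 0.456 to 25.3 ± 14.2. Vegfa and Tgfb1, often named in tumour macrophages, were not called, at 0.41 ± 0.37 (SE) and -0.50 ± 0.30 (SE). Of 30 receptors, 5 rose and 6 fell. Il7r and Il21r rose from 0.448 ± 0.0561 to 28.5 ± 3.82 and from 6.06 ± 0.4498 to 56.2 ± 2.03 FPKM. Csf3r, the granulocyte colony-stimulating factor receptor, fell from 206 ± 10.6 to 42.6 ± 11.1, Il17ra from 106 ± 13.2 to 27.4 ± 5.35 and Ifngr1, a chain of the interferon-gamma receptor, from 334 ± 73.1 to 137 ± 5.93.

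Several interferon-gamma genes rose, and most of the general interferon-stimulated genes were not called, as was true of all genes tested. Of 19 genes on the interferon-gamma list, 9 rose and 0 fell (median 0.93), whereas of 33 genes on the general interferon-stimulated list, 5 rose, 1 fell and 27 were not called (median 0.14). Over all genes tested, 7.37% were higher and 6.94% lower, and the difference between the lists was not tested. Gbp2, a guanylate-binding protein, read 79.01, 56.7 and 67.6 FPKM in MacB3-2wk and 23.6, 20.7 and 17.9 FPKM in MacB2-N and Socs1, a feedback inhibitor of cytokine signalling, 25.97, 23.2 and 24.6 FPKM in MacB3-2wk and 4.89, 7.65 and 6.71 FPKM in MacB2-N. Both were called, at 1.66 ± 0.21 (SE) and 1.80 ± 0.23 (SE). Cd274, the checkpoint ligand PD-L1, rose from 7.68 ± 2.98 to 27.8 ± 5.91 FPKM, Pdcd1lg2 (PD-L2) from 0.676 ± 0.509 to 4.68 ± 1.53 and Cd276 (B7-H3) from 1.83 ± 0.332 to 14.5 ± 1.09. Cd80, Cd86 and Cd40, which costimulate T cells, were not called, at -0.79 ± 0.33 (SE), 0.08 ± 0.23 (SE) and 0.86 ± 0.52 (SE). In the general list Bst2 (tetherin) rose from 183 ± 57.98 to 511 ± 86.03 FPKM and Ifit2 from 8.08 ± 1.15 to 24.3 ± 5.71, while Sp100, a nuclear body protein, fell from 418 ± 44.4 to 165 ± 26.7. Oasl1, Rsad2 and Ifit1 were called at 1.33, 1.18 and 1.15, and each lost its call in 3 or more of the fits with a library left out, so that the count of 5 was 3 without replicate 2 of MacB3-2wk, replicate 2 of MacB2-N or replicate 3 of MacB2-N and 2 without replicate 3 of MacB3-2wk. Isg15, Irf7 and Mx1 were not called (0.78 ± 0.30 (SE), 0.72 ± 0.35 (SE) and 0.11 ± 0.31 (SE)). Of the 6 called interferon-gamma genes with a promoter entry, 4 held the interferon core printed above for Cxcl10. So did 3 of the 5 called-higher general interferon-stimulated genes with an entry, against 3.26% of 9843 tested protein-coding genes.

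Several MHC class II genes rose, and most MHC class I genes were not called, as was true of all genes tested. Of 16 class II genes tested, 7 rose, 1 fell and 8 were not called, with a median of 0.84. H2-Ab1, a class II beta chain, read 4493, 4087 and 5904 FPKM in MacB3-2wk and 1147, 1549 and 782 FPKM in MacB2-N (2.09 ± 0.32 (SE), adjusted p = 9.1e-05), and H2-Eb1, another beta chain, 1899.7, 1579 and 2275 FPKM in MacB3-2wk and 357, 461 and 243 FPKM in MacB2-N (2.47 ± 0.34 (SE), adjusted p = 2.9e-05). All 3 tumour libraries were above the naive ones, which were themselves far from 0. H2-Aa rose from 575 ± 134 to 1759 ± 219 FPKM, H2-DMb1, a peptide-exchange chain, from 65.4 ± 27.7 to 161 ± 28.8, and Ctss, the protease that trims the invariant chain, from 806 ± 151 to 1708 ± 180.2. Cd74, the invariant chain, read 8056, 5052 and 9443 FPKM in MacB3-2wk and 2941, 3169 and 2772 FPKM in MacB2-N (1.30 ± 0.34 (SE), adjusted p = 0.009), a call lost without replicate 3 of MacB3-2wk (1.11, adjusted p = 0.0523). The Ctss call fell under 2-fold without replicate 3 of MacB2-N (0.94). Of 21 class I genes, 2 rose and 0 fell, beside 7.37% and 6.94% of all genes tested. Both risers were chaperones of the endoplasmic reticulum: Calr from 335 ± 61.5 to 828 ± 86.2 FPKM and Pdia3 from 583 ± 199 to 1501 ± 209. B2m and H2-K1 were high in both groups and not called (0.17 ± 0.29 (SE) and 0.58 ± 0.24 (SE)).

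Lysosomal genes were one of the broadest groups to rise. Of 46 tested, 28 rose, 1 fell and 17 were not called, with a median of 1.28. Ctsd, cathepsin D, read 922, 1171 and 1018 FPKM in MacB3-2wk and 101, 113 and 139 FPKM in MacB2-N (3.13 ± 0.30 (SE), adjusted p = 4.0e-07). Ctsl, cathepsin L, rose from 29.4 ± 8.18 to 225 ± 66.4 FPKM and Lgmn, the asparagine-specific protease legumain, from 118 ± 44.6 to 648 ± 29.4. Naglu, a glycosidase that breaks down heparan sulfate, rose from 8.21 ± 1.99 to 46.03 ± 3.86 FPKM. Each of these genes had tumour libraries wholly above the naive ones. Lamp1, Lamp2 and Psap, also lysosomal and high in both groups, were not called, at 0.36 ± 0.18 (SE), 0.04 ± 0.15 (SE) and 0.34 ± 0.25 (SE). Of the 21 risers with a promoter entry, 2 held the lysosomal core, and Ctsd is the one printed above.

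Uptake receptors and lipid genes moved both ways. Of 28 scavenger and uptake receptors, 10 rose and 3 fell, and of 45 Fc gamma and other immunoreceptors, 16 rose and 4 fell. Clec4n (dectin-2), a lectin for fungal mannans, read 838, 908 and 1079 FPKM in MacB3-2wk and 82.96, 104 and 39.1 FPKM in MacB2-N. Axl, a partner of Mertk, rose from 56.4 ± 30.5 to 258 ± 18.3 FPKM. Cd72, an inhibitory receptor best known from B cells, read 447, 385 and 614 FPKM in MacB3-2wk and 7.87, 7.703 and 1.58 FPKM in MacB2-N, and Fcrls, an Fc receptor-like protein known from microglia, 253, 205 and 231 FPKM in MacB3-2wk and 1.41, 3.01 and 2.501 FPKM in MacB2-N. The differences were 6.34 ± 0.54 (SE), adjusted p = 9.2e-08 for Cd72 and 6.15 ± 0.47 (SE), adjusted p = 2.6e-08 for Fcrls. Ms4a7, Ms4a14 and Slamf9 rose from 3.24 ± 2.85 to 133 ± 19.6, 0.397 ± 0.306 to 8.095 ± 0.748 and 6.97 ± 2.27 to 125 ± 12.2 FPKM. Of 33 lipid-handling genes, 10 rose and 5 fell. Abca1, the cholesterol exporter, rose from 3.98 ± 0.247 to 41.6 ± 14.2 FPKM, Ch25h, which makes 25-hydroxycholesterol, from 1.105 ± 1.16 to 26.6 ± 4.903 and the lysosomal phospholipase Pla2g15 from 13.8 ± 1.65 to 46.5 ± 4.603. Scarb1, the receptor for high-density lipoprotein, read 28.5, 28.2 and 30.4 FPKM in MacB3-2wk and 131, 127 and 125 FPKM in MacB2-N (-2.10 ± 0.14 (SE), adjusted p = 2.4e-09), and Apoc1, an apolipoprotein, fell from 29.6 ± 10.96 to 1.75 ± 1.01 FPKM. Of 25 cholesterol synthesis genes, 3 were lower and 0 higher, beside 6.94% and 7.37% of all genes tested.

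Some genes of heme breakdown and iron storage rose. Of 24 tested, 8 rose and 1 fell, with a median of 0.51. Hmox1, heme oxygenase 1, read 1243, 3127 and 2350.04 FPKM in MacB3-2wk and 371, 267 and 202 FPKM in MacB2-N (2.94 ± 0.35 (SE), adjusted p = 6.3e-06), Blvrb, which reduces its product biliverdin, rose from 36.5 ± 5.86 to 159.7 ± 27.2 FPKM, and Hebp1, a heme-binding protein, from 2.54 ± 1.68 to 40.8 ± 7.47. Fth1, ferritin heavy chain, read 18058, 31354 and 27139 FPKM in MacB3-2wk and 5179, 6285 and 3359.5 FPKM in MacB2-N, among the most abundant transcripts of both populations. Hbb-bs, a hemoglobin chain with close copies, read 5.68, 25.9 and 3.92 in MacB3-2wk against 269, 104 and 84.6 FPKM and was not called. Of 25 antioxidant genes, 6 were higher and 2 lower, beside 7.37% and 6.94% of all genes tested. Gclm, Prdx1 and Slc7a11, of glutathione synthesis and peroxide removal, rose from 15.1 ± 2.82 to 61.1 ± 12.5, 50.02 ± 10.2 to 179 ± 53.3 and 8.02 ± 1.67 to 26.5 ± 3.54 FPKM. Gsr, which regenerates glutathione, fell and read 27.3, 30.8 and 24.1 FPKM in MacB3-2wk and 192, 216 and 131 FPKM in MacB2-N (-2.65 ± 0.24 (SE), adjusted p = 2.4e-07).

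Some glycolysis and hypoxia genes rose, and few genes of oxidative phosphorylation were called. Of 37 glycolysis and hypoxia genes tested, 14 rose, 2 fell and 21 were not called (median 0.93), and of 43 respiratory chain genes, 2 rose and 1 fell (median 0.32). Aldoa, aldolase A, read 1092, 1090.2 and 1329.7 FPKM in MacB3-2wk and 447, 377 and 354 FPKM in MacB2-N, and Ldha, lactate dehydrogenase A, 255, 276 and 252 FPKM in MacB3-2wk and 75.5, 100.3 and 75.6 FPKM in MacB2-N. The lowest tumour library lay more than 2-fold above the highest naive library in both. Bnip3, a mitophagy receptor induced by low oxygen, read 249.7, 236 and 264 FPKM in MacB3-2wk and 23.8, 18.3 and 23.4 FPKM in MacB2-N (3.47 ± 0.37 (SE), adjusted p = 1.8e-06), and Ero1l, an oxidase of the endoplasmic reticulum, rose from 1.903 ± 0.292 to 12.6 ± 1.69 FPKM. Aldoc rose from 2.62 ± 1.22 to 16.4 ± 2.42, and Eno3, the muscle-type enolase that also belongs to the nonclassical monocyte list, fell from 68.5 ± 36.5 to 3.06 ± 0.9799. Pkm, Eno1 and Hif1a were not called (0.93 ± 0.13 (SE), 0.85 ± 0.27 (SE) and 0.82 ± 0.21 (SE)). The 3 respiratory chain calls, Atp5b and Cox5a higher and Cycs lower, were all lost without replicate 3 of MacB2-N. The count of 2 higher was 1 without replicate 2 or 3 of MacB3-2wk and 4 without replicate 1 or 2 of MacB2-N.

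Cell cycle genes rose in tumour MacB3. Of 44 mitosis genes tested, 34 rose and 0 fell, with a median of 1.76, and of 43 DNA replication genes, 28 rose and 1 fell, with a median of 1.53. Top2a, the topoisomerase of dividing cells, read 51.9, 66.1 and 45.9 FPKM in MacB3-2wk and 0.6298, 3.31 and 2.64 FPKM in MacB2-N (4.22 ± 0.34 (SE), adjusted p = 4.2e-08), and Ube2c, which marks mitotic cyclins for destruction, 55.3, 52.3 and 60.6 FPKM in MacB3-2wk and 1.799, 2.13 and 0.4797 FPKM in MacB2-N (4.60 ± 0.31 (SE), adjusted p = 4.7e-09). Both were far higher in each tumour library than in any naive one. Birc5 (survivin) and Tpx2, of the spindle, rose from 0.971 ± 0.684 to 30.3 ± 8.94 and 0.679 ± 0.418 to 20.4 ± 3.11 FPKM. Mcm3, Mcm5, Mcm6 and Mcm7, subunits of the replicative helicase, rose by 2.27, 2.21, 2.78 and 1.92 on the log2 scale, and Ccna2, cyclin A2, from 2.28 ± 0.872 to 37.1 ± 4.39 FPKM. Hist1h2ah, a histone H2A gene with near-identical copies, read 127, 269.6 and 104 FPKM in MacB3-2wk and 0.5297, 2.503 and 0.377 FPKM in MacB2-N. Pcna, the polymerase clamp, was already high in naive cells and was not called (162 ± 19.6 against 99.5 ± 14.6 FPKM). With 5 in place of 1 FPKM added before the log 17 of them were called.

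**Figure D3:**
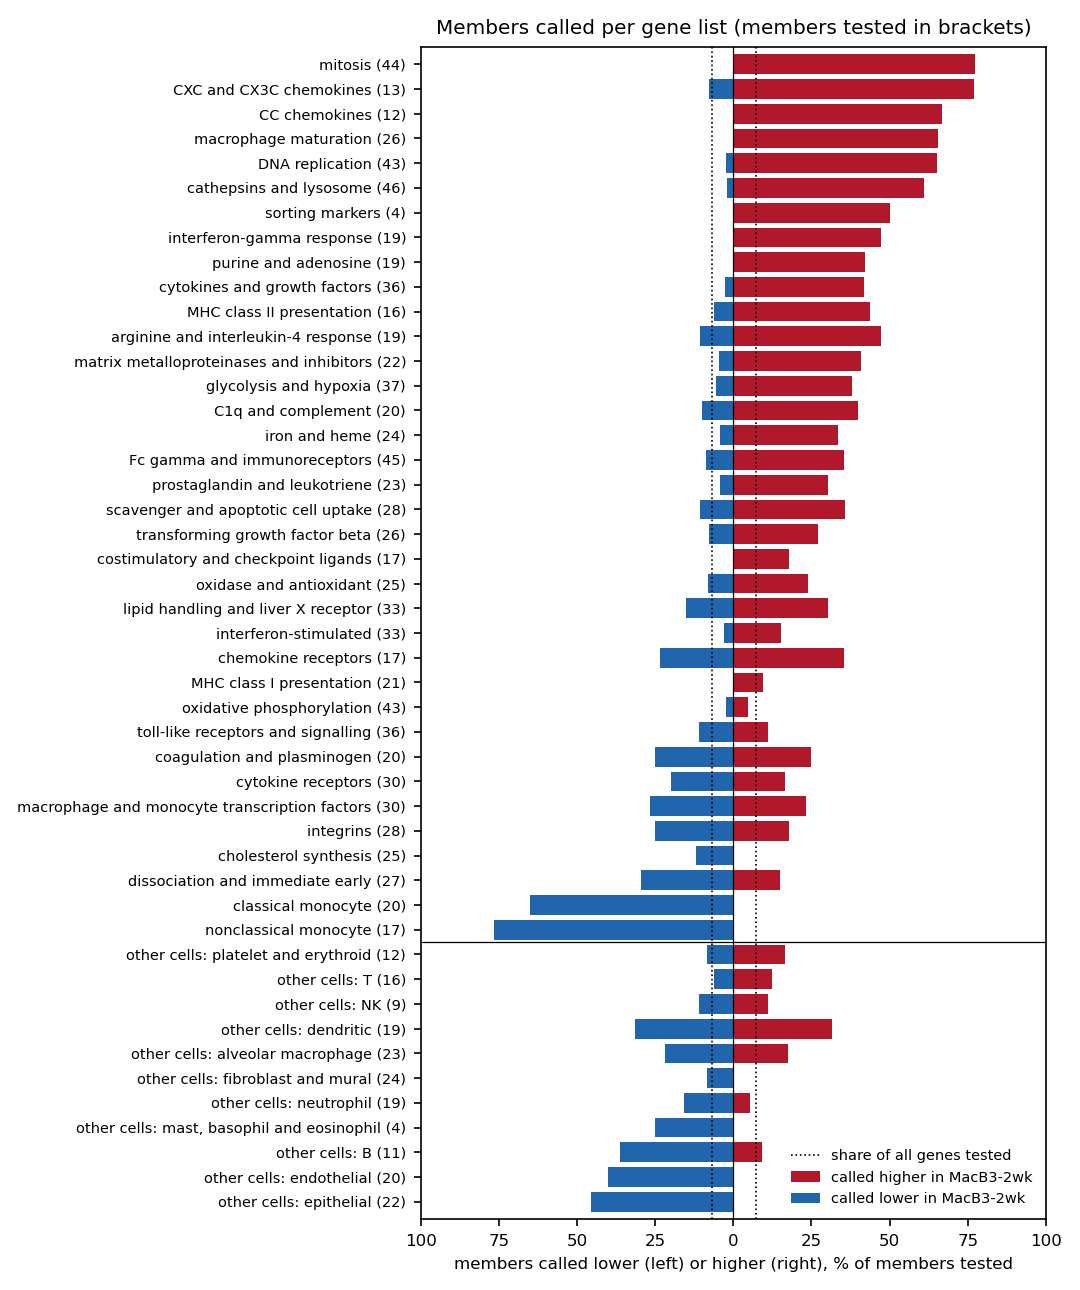
Share of the tested members of each gene list called higher in MacB3-2wk (right, red) or lower (left, blue) than in MacB2-N, in percent, with dotted lines at the 7.37% and 6.94% of all genes. Nonclassical and classical monocyte lists reach furthest to the left, and mitosis, CXC chemokine, CC chemokine, macrophage maturation and DNA replication lists furthest to the right.

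Markers of other leukocytes were looked at because the gates could hold them, and what part they had in the results above was not tested. Of 19 neutrophil markers, 1 rose (Mmp9) and 3 fell (Cd177, Csf3r and Mmp8), with list means of 2.22, 2.51 and 2.00 in MacB3-2wk and 2.44, 2.54 and 2.42 in MacB2-N. The Mmp9 call was also lost without replicate 1 or 3 of MacB2-N. Camp was listed at 0 in all 6 libraries and Ngp and Retnlg stayed near 0. Of 23 alveolar macrophage markers, 4 rose and 5 fell, with list means of 2.47, 2.84 and 2.54 and 2.39, 2.46 and 2.80. The risers were Ctsk, cathepsin K, from 0.771 ± 0.667 to 24.4 ± 7.39 FPKM, F7, coagulation factor VII, Atp6v0d2, a proton pump subunit, and Mcoln3, a lysosomal channel listed at 0 in MacB2-N and at 9.31, 12.3 and 6.39 FPKM in MacB3-2wk. Pparg and Fabp4, which define alveolar macrophages, were not called, at 4.904 ± 0.3003 against 10.5 ± 3.88 and 40.3 ± 20.9 against 28.2 ± 2.58 FPKM. Of 19 dendritic cell markers, 6 rose and 6 fell, with list means of 3.24, 2.77 and 3.51 and 2.81, 2.79 and 3.31. Ccl17, a chemokine of dendritic cells, rose from 2.34 ± 2.16 to 20.3 ± 5.05 FPKM, and Flt3 and Btla fell to 0.498 ± 0.377 and 0.274 ± 0.324 FPKM. Zbtb46, the factor of conventional dendritic cells, read 1.94, 0.493 and 2.15 FPKM in MacB3-2wk and 0.647, 3.86 and 5.14 FPKM in MacB2-N and was not called.

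T and NK cell markers were called in both directions, and B cell markers fell more often than they rose. Over all genes tested, 7.37% were higher and 6.94% lower. Of 11 B cell markers, 4 fell (2 without replicate 2 of MacB3-2wk) and 1 rose, and the list means were 1.57, 1.68 and 1.69 in MacB3-2wk and 2.62, 2.47 and 3.19 in MacB2-N. Igkc, the kappa light chain, read 14.5, 23.02 and 5.51 FPKM in MacB3-2wk and 98.6, 87.6 and 401 FPKM in MacB2-N. Replicate 3 of MacB2-N was the highest, and Ms4a1 (CD20) was not called, at 0.41996, 0 and 0.0863 against 0.922, 0.139 and 2.199 FPKM. Cd22, a sialic acid-binding receptor, was the riser, from 0.595 ± 0.4901 to 6.03 ± 1.78 FPKM. Of 16 T cell markers, 2 rose and 1 fell. The faller was Cd3d, a chain of the T cell receptor complex, from 4.16 ± 0.792 to 1.23 ± 0.706 FPKM, a call lost without replicate 3 of MacB3-2wk, and the count was 2 without replicate 2 of MacB2-N. The risers were Il7r as given above and Cd4, which mouse macrophages can also express, from 1.37 ± 0.578 to 4.95 ± 1.01, while Cd3e and Cd3g were not called at 1.42 ± 1.07 and 1.905 ± 3.299 FPKM in MacB3-2wk. Of 9 NK cell markers, 1 rose (Ccl5) and 1 fell (Gzmb). Fibroblast and mural markers gave 0 of 24 higher and 2 lower, which became 0 lower without replicate 2 or 3 of MacB3-2wk or replicate 3 of MacB2-N and 1 without replicate 1 of either group.

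Tumour MacB2 (MacB2-2wk, the CD64med/CD11c- gate in the injected lobe at 2 weeks) and naive MacB1 (MacB1-N, a CD64low/CD11c+ gate in uninjected lung) place these genes beside a population that shares the tumour and one that shares CD11c. Both comparisons use the same MacB3-2wk libraries, so their differences are not independent of those above and are given only side by side. Of all genes tested, 7.36% were called in either direction against MacB2-2wk and 21.5% against MacB1-N. Arg1 read 93.2, 46.4 and 140.4 FPKM in MacB2-2wk and 0.297, 0.391 and 0.858 in MacB1-N, so tumour MacB2 lay between naive MacB2 and MacB3-2wk (difference from MacB2-2wk 2.72 ± 0.44 (SE), adjusted p = 4.4e-04). Gpnmb was likewise placed, with 55.9, 17.3 and 54.2 FPKM in MacB2-2wk, and so was Ccl12, with 6.71, 8.38 and 23.4 FPKM. C1qa, at 63.9, 65.1 and 85.4 FPKM in MacB2-2wk and 24.4, 27.1 and 36.1 in MacB1-N, was far below MacB3-2wk in both (4.70 ± 0.34 (SE), adjusted p = 5.2e-08 and 5.96 ± 0.34 (SE), adjusted p = 5.0e-10).

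Classical monocyte genes stayed near the naive level in MacB2-2wk, and nonclassical ones lay between. Plac8 read 753, 715 and 696 FPKM in MacB2-2wk and 262, 182 and 154 in MacB1-N. The classical monocyte list had mean levels of 7.92, 8.07 and 7.95 in MacB2-2wk against 7.84, 8.23 and 7.71 in MacB2-N and 5.99, 5.61 and 5.65 in MacB3-2wk. The nonclassical list had mean levels of 6.25, 6.17 and 6.05 in MacB2-2wk, between those of MacB2-N and MacB3-2wk given above. Ace read 146, 199.5 and 109.6 FPKM in MacB2-2wk and 912, 727 and 597 in MacB1-N, the highest group of the 4. Cxcl10 was nearly as high in MacB2-2wk (953, 891 and 1471 FPKM) as in MacB3-2wk and was not called between them (0.31 ± 0.32 (SE), adjusted p = 0.62), while Cxcl9 was (1.96 ± 0.31 (SE), adjusted p = 3.9e-04). Among the airway genes, Scgb1a1 read 285, 1469 and 2374 FPKM in MacB2-2wk and 12684, 7494 and 2742 in MacB1-N. Against MacB2-2wk, Scgb1a1, Scgb3a2, Cyp2f2 and Bpifa1 were not called and Wfdc2 was lower. All of these were called lower in MacB3-2wk than in MacB1-N.

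MHC class II genes were high in both CD11c+ populations. H2-Ab1 read 4312, 4197 and 4869.5 FPKM in MacB1-N and 1059, 867 and 1232 in MacB2-2wk, and MacB3-2wk was not called against naive MacB1 (0.10 ± 0.32 (SE), adjusted p = 0.87) but exceeded tumour MacB2 (2.19 ± 0.32 (SE), adjusted p = 1.8e-04). Cd74 read 10934, 7905 and 13985 FPKM in MacB1-N and 2279.7, 1905 and 2712 in MacB2-2wk, and was not called between MacB3-2wk and MacB1-N (-0.55 ± 0.34 (SE), adjusted p = 0.23). Itgax read 114, 103 and 91.99 FPKM in MacB1-N. Cd72, Fcrls and Anpep were also present in MacB1-N, at 37.3 ± 8.2, 57.4 ± 6.54 and 36.01 ± 20.8 FPKM, and each was called higher in MacB3-2wk than there. Mgl2 and Ccl17 were higher in MacB1-N, at 268 ± 32.6 and 362 ± 78.6 FPKM, than in MacB3-2wk. Fcgr1 was low there, at 9.54 ± 1.12 FPKM, and stood at 98.8 ± 16.3 FPKM in MacB2-2wk. Top2a read 13.03, 14.5 and 13.02 FPKM in MacB2-2wk and 9.77, 10.5 and 13.8 in MacB1-N, all below the lowest MacB3-2wk library.

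**Figure D4:**
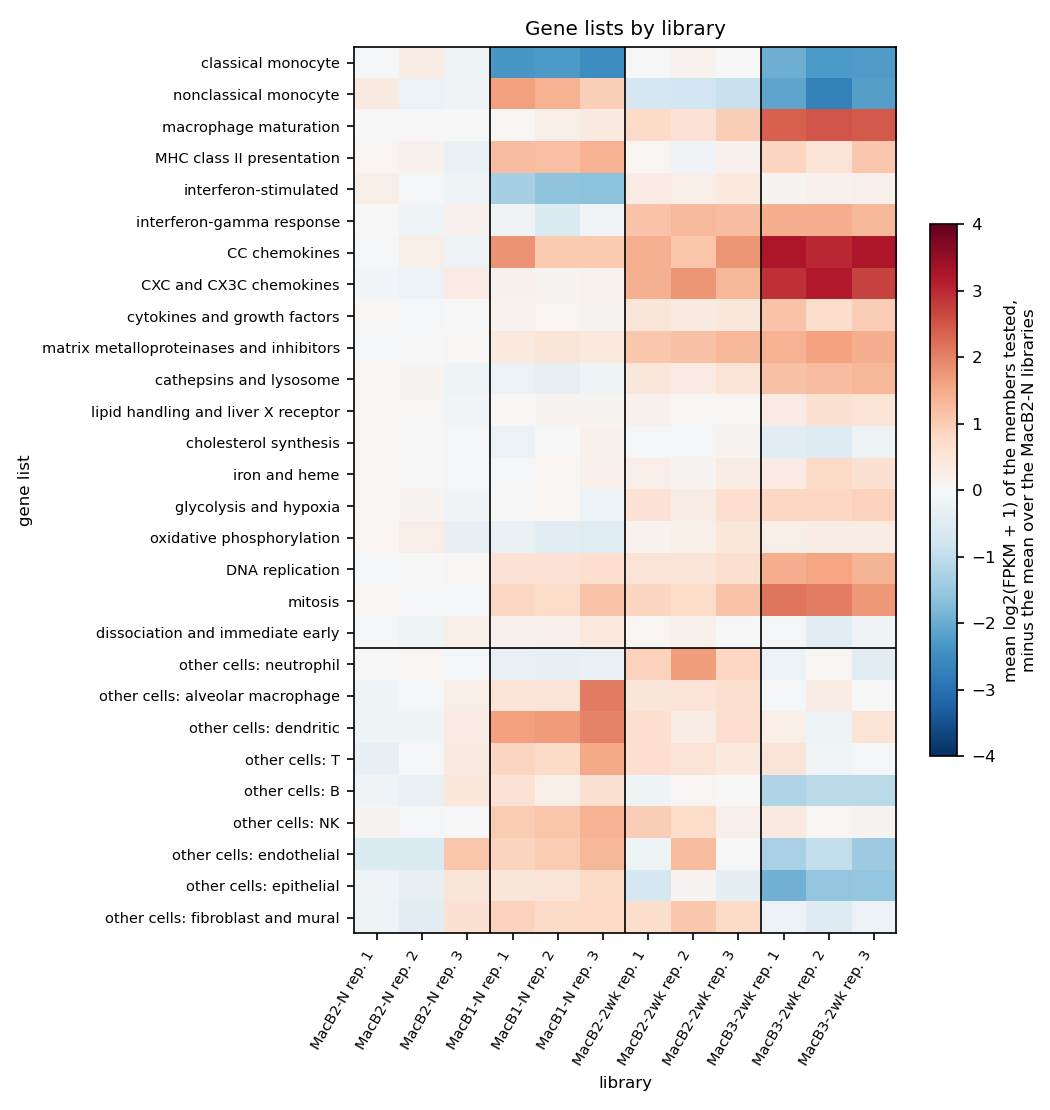
Mean log2(FPKM + 1) of the tested members of 28 gene lists (rows) in each library of MacB2-N, MacB1-N, MacB2-2wk and MacB3-2wk (columns), shown as the difference from the MacB2-N mean. The classical monocyte row is blue in MacB1-N and MacB3-2wk but not in MacB2-2wk, and the chemokine, macrophage maturation and mitosis rows are reddest in MacB3-2wk.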

How the data were processed

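The authors deposited 1 table of FPKM values for 37979 genes in 24 libraries of 8 groups, and depth cannot be read from such values. Per the submitters' processing notes, FastQC, TopHat2 version 2, Cufflinks 2.0.2 and mm10 were used, and whether counting used strand is not given in these sources. Groups were taken from the sample titles (the design text gives the 2-week MacB3 group a 3-week name). limma 3.58.1 in R 4.3.3 was fitted to log2(FPKM + 1) over all 24 libraries as a mean for each group, which left 16 residual degrees of freedom, with an empirical Bayes trend. Genes needed a mean of at least 1 FPKM in 1 group, p was Benjamini-Hochberg adjusted over the 17156 genes left, and all tests were two-sided. 14133 genes were at 0 in every library. The fit was tested on simulated data.

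Genes named were the 15 highest and 15 lowest protein-coding differences (adjusted p under 0.05, at least 20 FPKM in the higher group, no overlap), up to 6 called genes per list, sorting and cell type markers, and uncalled list members. Of 1210 entries in 48 lists, 1200 were in the table. Members and lists were chosen with earlier results of these data known. Promoters matched 850 of 1149 higher and 695 of 980 lower protein-coding genes by symbol, of which 849 and 694 symbols were distinct. Same-numbered libraries shared a run lane but did not deviate together, so no block was used, and 19 alternative settings were tried.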

Additional observations from a re-analysis of the deposited data

How the results depend on the processing

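With 5 in place of 1 FPKM added, 763 genes were called higher and 667 lower, against 1265 and 1190, and 17 of the mitosis genes were higher, against 34; a larger added value shrinks the differences of low genes by construction. With no minimum fold the counts were 1767 and 1761. Leaving out single libraries gave 1114 to 1267 higher and 957 to 1339 lower genes. The 8 endothelial genes called lower became 4 with 5 FPKM added, 4 with no filter on low values, 1 with only the 6 libraries compared, 4 with libraries scaled to the same protein-coding sum and 1 to 9 with a library left out, and the cause was not tested. The other list counts kept within 1.5 times of their value when a library was left out for the lists of classical monocyte (11 to 14 lower), nonclassical monocyte (13 in each), macrophage maturation (16 to 18 higher), lysosome (25 to 28) and DNA replication (26 to 30) genes. Without replicate 2 of MacB3-2wk the cytokine receptors called higher became 3 (from 5), and those called lower became 2 chemokine receptors and 2 toll-like receptor genes (from 4 each) and 3 alveolar macrophage markers (from 5), the last also without replicate 3 of MacB2-N. The 1 platelet and erythroid gene called lower became 3 without replicate 2 of MacB3-2wk and 2 without replicate 3 of MacB2-N. Of 224 named genes called against MacB2-N, 185 kept their call in every setting, 39 lost it in at least 1, and no value was reversed. These genes were named mainly for large differences or small adjusted p in the same libraries, so this share does not describe all called genes. Same-numbered libraries did not deviate together (correlations -0.033 to 0.016), although they shared a run lane, so they were not taken as pairs. With the replicate number as a replicate block, 1244 genes were higher and 1214 lower, 1 named gene lost its call (Ptprb, an endothelial phosphatase), the genes called lower became 4 of the platelet and erythroid, 4 of the fibroblast and mural, 4 of the transforming growth factor beta and 3 of the iron and heme list (from 1, 2, 2 and 1), and 1 library correlated best with its own number. FPKM hold no read counts, so the depth behind low values is unknown.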

Other observations

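Some lipid mediator and purine genes were higher in MacB3-2wk. Of 23 prostaglandin and leukotriene genes tested, 7 rose, 1 fell and 15 were not called, with a median of 0.24. Ltc4s, leukotriene C4 synthase, read 59.99, 33.4 and 17.4 FPKM in MacB3-2wk and 5.04, 3.12 and 0 FPKM in MacB2-N (3.53 ± 0.56 (SE), adjusted p = 1.5e-04), and Ptgs1, cyclooxygenase 1, 80.2, 80.8 and 41.1 FPKM in MacB3-2wk and 10.6, 16.7 and 23.5 FPKM in MacB2-N (1.93 ± 0.35 (SE), adjusted p = 5.0e-04). Hpgd, which inactivates prostaglandins, fell from 136 ± 13.5 to 14.95 ± 5.43 FPKM, while Hpgds and Tbxas1, synthases of prostaglandin D and thromboxane, rose from 2.34 ± 1.69 to 13.1 ± 4.33 and from 12.3 ± 2.35 to 44.5 ± 6.74. Ptgs2, cyclooxygenase 2, was not called (119 ± 47.2 against 96.9 ± 15.5 FPKM). Of 19 purine genes, 8 rose, 0 fell and 11 were not called. Nt5e (CD73), which makes adenosine outside the cell, rose from 0.605 ± 0.225 to 7.86 ± 0.934 FPKM, Cd38, which consumes NAD, from 3.05 ± 1.75 to 25.2 ± 11.02, and the nucleotide receptor P2ry6 from 67.2 ± 14.7 to 168 ± 20.1. Entpd1 (CD39), the enzyme before Nt5e, was not called, at 0.24 ± 0.18 (SE).

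Coagulation and adhesion genes moved both ways. Of 20 coagulation genes, 5 rose and 5 fell, and the median (-0.15) and the mean level of the list (4.49, 4.32 and 4.20 in MacB3-2wk, 4.30, 4.15 and 4.35 in MacB2-N) gave opposite signs. Procr, the protein C receptor, rose from 1.71 ± 1.61 to 19.8 ± 7.15 FPKM, and Thbd (thrombomodulin) and F5 (factor V) fell from 248 ± 53.3 to 41.2 ± 6.704 and from 18.2 ± 5.19 to 1.72 ± 0.959. Of 28 integrin and adhesion genes, 5 rose and 7 fell. Vcam1, a ligand of the integrin that Itga4 forms, read 22.4, 29.9 and 25.5 FPKM in MacB3-2wk and 2.03, 0.758 and 3.76 FPKM in MacB2-N, and Itga9 rose from 1.004 ± 0.341 to 14.7 ± 1.79 FPKM. Of 36 toll-like receptor genes, 4 rose and 4 fell, beside 7.37% and 6.94% of all genes tested. Tlr4, the endotoxin receptor, and Tlr1 rose from 50.1 ± 26.7 to 146 ± 27.4 and from 3.27 ± 1.23 to 12.6 ± 2.13 FPKM, and Nfkb1 fell from 61.2 ± 5.04 to 26.98 ± 3.97. Of 26 transforming growth factor beta genes, 7 rose and 2 fell, again with a median (-0.24) against the list means (4.51, 4.36 and 4.52 and 4.24, 4.13 and 4.53). Tgfbi, a matrix protein induced by the pathway, rose from 298 ± 89.3 to 765 ± 119 FPKM, and Smad4, its common mediator, fell from 178 ± 6.21 to 67.6 ± 19.3. Mast, basophil and eosinophil markers gave 0 of 4 higher and 1 lower (Hdc, which makes histamine).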
